A study of Mus musculus with 6 samples.

Results

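The genes described are 8 markers of striatal projection neurons, Ppp1r1b, Adora2a, Gpr6, Rgs9, Pde10a, Rasd2, Rarb and Adcy5, measured in mouse prefrontal cortex. They were chosen by symbol from the 54134 genes listed for each library, and all 8 were among the 18705 genes that passed the filter on low counts. Striatal projection neurons are the GABA-releasing output cells of the striatum, which lies beneath the frontal cortex and can be cut with it in a dissection. They fall into a direct pathway, marked by the dopamine receptor Drd1, and an indirect pathway, marked by the dopamine receptor Drd2 and the adenosine receptor Adora2a. In both, dopamine and adenosine set the level of cAMP, which protein kinase A relays to DARPP-32, the product of Ppp1r1b. Several of these genes are also transcribed by neurons of the cortex itself, DARPP-32 in deep-layer pyramidal cells among them, so a level in cortex is not by itself a level of striatal tissue.

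The study profiled ribosome-depleted total RNA from the prefrontal cortex of mice 6 to 8 weeks old by stranded sequencing, in 3 groups of 2 libraries, each from a different mouse. The first group held Shank3 +/∆C mice, which carry 1 allele with a C-terminal deletion of the postsynaptic scaffold Shank3, treated with GSK-LSD1, an inhibitor of the histone demethylase LSD1. The second held Shank3 +/∆C mice treated with vehicle, and the third held wild-type mice of a C57BL/6 x C3H cross treated with vehicle. The dose, route and timing of treatment and the strain background of the mutants were not stated in the labels. Since the tissue was bulk, fewer cells of a type and less RNA per cell cannot be told apart in any of the levels that follow.

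The libraries held 23538125 and 14133834 counted reads in GSK-LSD1-treated mutants, 21734688 and 21488920 in vehicle-treated mutants, and 15194848 and 28646960 in wild-type mice. Shank3 itself stood at 159 and 148 CPM (counts per library total, on the usual CPM scale, with TMM adjustment) in GSK-LSD1-treated mutants, 146 and 174 CPM in vehicle-treated mutants, and 153 and 160 CPM in wild-type mice. The total count of a gene with a C-terminal deletion in 1 allele does not check the genotype labels. Slc17a7, the vesicular glutamate transporter of cortical excitatory neurons, stood between 1160 and 1920 CPM in all 6 libraries. Some libraries stood apart from the other library of their group in markers of other cells. The summed level of 12 mature oligodendrocyte markers was 2504 CPM in GSK-LSD1 library 1 and 5873 CPM in GSK-LSD1 library 2, against 6178 and 6230 CPM in vehicle-treated mutants and 2711 and 2462 CPM in wild-type mice. GSK-LSD1 library 2 was the highest of the 6 libraries in all 7 tested markers of the ventricle lining and all 6 tested markers of septum and hypothalamus. Of all tested genes, 21.1% were highest in that library. Vehicle-treated mutant library 1 was the highest in 9 of 13 deep-layer markers and the lowest in 7 of 8 upper-layer markers. Of all tested genes, 12.9% were highest and 13.3% lowest in that library. Vehicle-treated mutant library 2 was the lowest in 9 of the 13 deep-layer markers, where 15.5% of tested genes were lowest. Wild-type library 1 was the lowest in all 8 astrocyte markers and in 5 of 8 microglia markers, where 24.3% of tested genes were lowest.

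None of the 8 members differed between groups past the threshold of the test in any of the 3 comparisons, and they did not move as a block from library to library. What varied was single members in single libraries: Ppp1r1b was 1.90 times as high in vehicle-treated mutant library 1 as in library 2, and Gpr6 was highest in GSK-LSD1 library 2. Adora2a was 2.37 times as high in wild-type library 1 as in wild-type library 2. Gpr6 and Rgs9 were higher in both GSK-LSD1 libraries than in both vehicle-treated mutant libraries, short of the threshold after adjustment. Adcy5, the most abundant member, stood within 188 to 205 CPM throughout.

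The members lie on 6 chromosomes in the GRCm38 annotation of GENCODE release M21. Ppp1r1b is at chr11:98348404-98357796 on the plus strand and Rgs9 at chr11:109225355-109298129 on the minus strand. Adora2a is at chr10:75316877-75334784 on the plus strand and Gpr6 at chr10:41069977-41072285 on the minus strand. Pde10a is at chr17:8525372-8986648, Rasd2 at chr8:75213944-75224113 and Adcy5 at chr16:35154877-35305738, all on the plus strand, and Rarb is at chr14:16430839-16819156 on the minus strand. Up to 1429 bases of Rarb exon overlap exons of Top2b on the opposite strand, and Top2b held 2517 to 5785 reads per library against 46 to 124 for Rarb. The libraries were stranded, but no label states whether strand was used in counting, and without it reads of these 2 genes cannot be told apart. Ppp1r1b overlaps 1700003D09Rik on the opposite strand over 215 bases, a gene with 1 to 5 reads per library.

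The 250 bases before the transcription start were read from RefSeq (GRCm38.p6) for 7 windows of 6 members, Gpr6, Rgs9, Pde10a, Rasd2, Rarb and Adcy5. Each window was searched on both strands for the cAMP response element TGACGTCA, the site bound by CREB downstream of protein kinase A, and for a retinoic acid response element written as 2 copies of a 6-base site in the same direction with 5 bases between them. The site was AGGTCA, and AGTTCA was also taken as a copy, as was GGGTCA and as was GGTTCA. The first was found in the Gpr6 window, starting 78 bases before the start, and in 508 of all 32851 windows (1.55%). The second was found in the Rarb window, starting 53 bases before the start, and in 29 of all windows (0.0883%). Rarb is a textbook target of its own receptor through such a repeat. The windows of these 2 members are printed because they hold the letters of the 2 pathways to which the members belong. Capitals mark the match, and both genes are read from the minus strand, at chr10:41072291-41072540 for Gpr6 and chr14:16575477-16575726 for Rarb. The Rarb window lies inside the GENCODE span of Rarb given above. Its start is thus that of a RefSeq transcript that begins within the gene, not the outer end of that span. A match describes the letters only, and these data hold no measurement of binding.
Gpr6 promoter: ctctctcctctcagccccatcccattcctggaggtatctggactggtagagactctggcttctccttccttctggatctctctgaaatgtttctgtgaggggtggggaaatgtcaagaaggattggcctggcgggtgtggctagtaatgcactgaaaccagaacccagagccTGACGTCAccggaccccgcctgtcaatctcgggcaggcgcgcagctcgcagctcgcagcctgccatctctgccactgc
Rarb promoter: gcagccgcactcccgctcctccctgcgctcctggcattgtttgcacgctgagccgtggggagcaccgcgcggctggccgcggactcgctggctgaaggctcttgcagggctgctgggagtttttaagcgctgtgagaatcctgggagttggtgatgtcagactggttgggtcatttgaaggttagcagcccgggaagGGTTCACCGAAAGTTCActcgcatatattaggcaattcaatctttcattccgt

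Compared per exonic length (RPKM, CPM divided by exonic kilobases), the members spanned a wide range in cortex. Adcy5, the adenylyl cyclase that makes most cAMP in striatal neurons, averaged 26.9 RPKM over the 6 libraries, above 89.6% of tested genes. Rasd2, also called Rhes, a small GTPase that binds mutant huntingtin, averaged 15.1 RPKM, and Ppp1r1b, an inhibitor of protein phosphatase 1 once phosphorylated by protein kinase A, averaged 9.59 RPKM. Pde10a, the phosphodiesterase that breaks down cAMP and cGMP in both kinds of striatal projection neuron, averaged 6.0 RPKM. The other members were low. Rgs9, a GTPase-activating protein that shortens signalling by dopamine and opioid receptors, averaged 1.89 RPKM, and Gpr6, an orphan receptor of the indirect pathway that raises cAMP, averaged 1.02 RPKM. Rarb, a retinoic acid receptor needed for the development of striatal projection neurons, averaged 0.735 RPKM, and Adora2a averaged 0.578 RPKM, above 20.7% of tested genes. The ranges of neighbouring members over the 6 libraries did not overlap for Adcy5 and Rasd2, Rasd2 and Ppp1r1b, or Pde10a and Rgs9. They overlapped for Ppp1r1b and Pde10a, for Rgs9 and Gpr6, for Gpr6 and Rarb, and for Rarb and Adora2a.

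**Figure D1:**
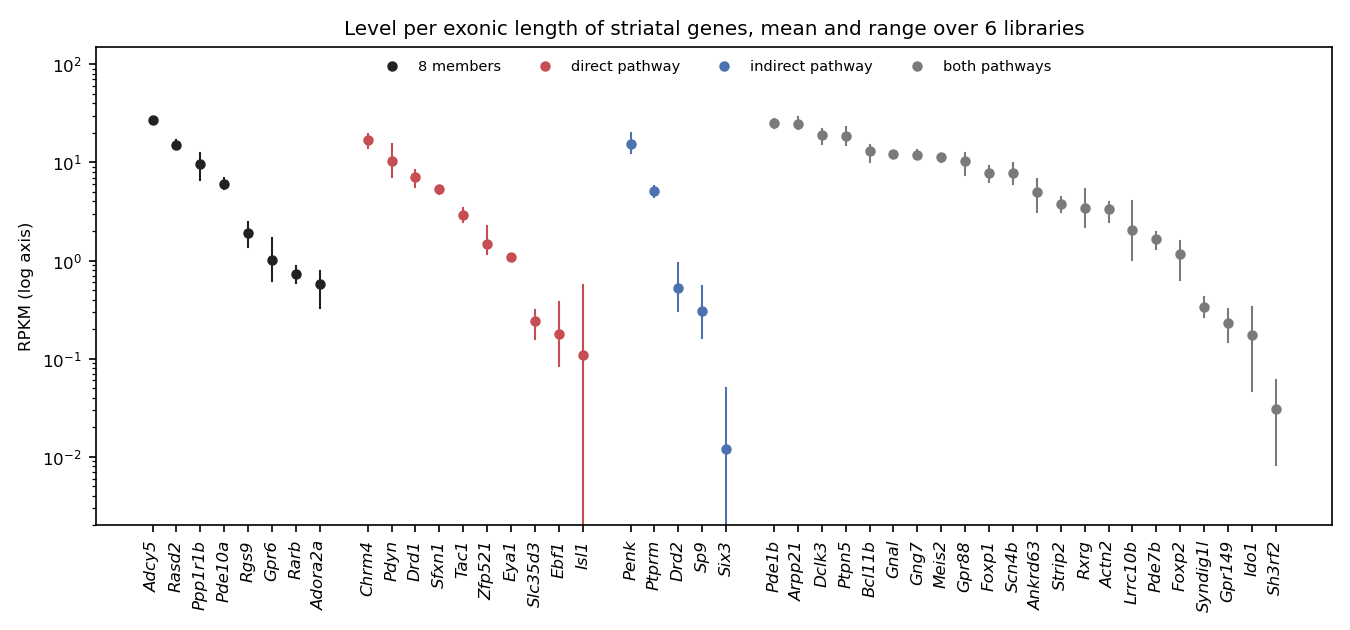
Level per exonic length (RPKM, log axis) of the 8 members and of further genes of the direct pathway, the indirect pathway and both pathways; points are means and lines the range over 6 libraries, lines that reach the lower edge include libraries at 0. The members run between Adora2a at 0.578 RPKM and Adcy5 at 26.9 RPKM, while Isl1, Six3 and Sh3rf2 lie at or under 0.11 RPKM.

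Among the receptors, Adora2a stood at 1.87 and 1.57 CPM in GSK-LSD1-treated mutants, 1.61 and 2.18 CPM in vehicle-treated mutants, and 2.40 and 1.01 CPM in wild-type mice. The highest and the lowest library were both wild-type, and the 3 groups overlapped. These levels rest on 23 to 48 reads per library, and the ratio of wild-type library 2 to library 1 was 0.422, with a counting interval of 0.247 to 0.715 (95%). The log2 fold change of vehicle-treated mutants over wild type was 0.21 (95% interval -0.71 to 1.13), and it turned to -0.34 without wild-type library 2 and to -0.02 without vehicle-treated mutant library 2. Gpr6 stood at 1.91 and 3.0 CPM in GSK-LSD1-treated mutants, 1.10 and 1.41 CPM in vehicle-treated mutants, and 1.57 and 1.99 CPM in wild-type mice, on 23 to 55 reads per library. Both vehicle-treated mutant libraries lay below all the others, and GSK-LSD1 library 2 lay above all the others.

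Among the enzymes and regulators of cAMP signalling, Ppp1r1b stood at 29.7 and 29.5 CPM in GSK-LSD1-treated mutants, 36.6 and 19.3 CPM in vehicle-treated mutants, and 26.8 and 26.4 CPM in wild-type mice. The 2 vehicle-treated mutant libraries were the highest and the lowest of the 6, while the libraries of each other group differed by less than their counting error. Pde10a stood at 75.9 and 73.8 CPM in GSK-LSD1-treated mutants, 73.1 and 69.3 CPM in vehicle-treated mutants, and 89.1 and 81.3 CPM in wild-type mice. Both wild-type libraries lay above all 4 mutant libraries. Adcy5 stood at 188 and 195 CPM in GSK-LSD1-treated mutants, 192 and 191 CPM in vehicle-treated mutants, and 205 and 191 CPM in wild-type mice, with all groups overlapping.

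Rgs9 stood at 15.7 and 14.2 CPM in GSK-LSD1-treated mutants, 13 and 8.80 CPM in vehicle-treated mutants, and 9.04 and 11.6 CPM in wild-type mice. Both GSK-LSD1 libraries lay above the other 4, and the vehicle-treated mutants overlapped with wild type. Rasd2 stood at 54.4 and 47.1 CPM in GSK-LSD1-treated mutants, 45.6 and 45.8 CPM in vehicle-treated mutants, and 44.1 and 50.3 CPM in wild-type mice. The GSK-LSD1 libraries lay above the vehicle-treated mutants and overlapped with wild type. Rarb stood at 3.73 and 3.13 CPM in GSK-LSD1-treated mutants, 4.64 and 3.40 CPM in vehicle-treated mutants, and 3.83 and 4.48 CPM in wild-type mice. GSK-LSD1 library 2 was the lowest and vehicle-treated mutant library 1 the highest, and only the GSK-LSD1-treated mutants and wild type did not overlap.

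**Figure D2:**
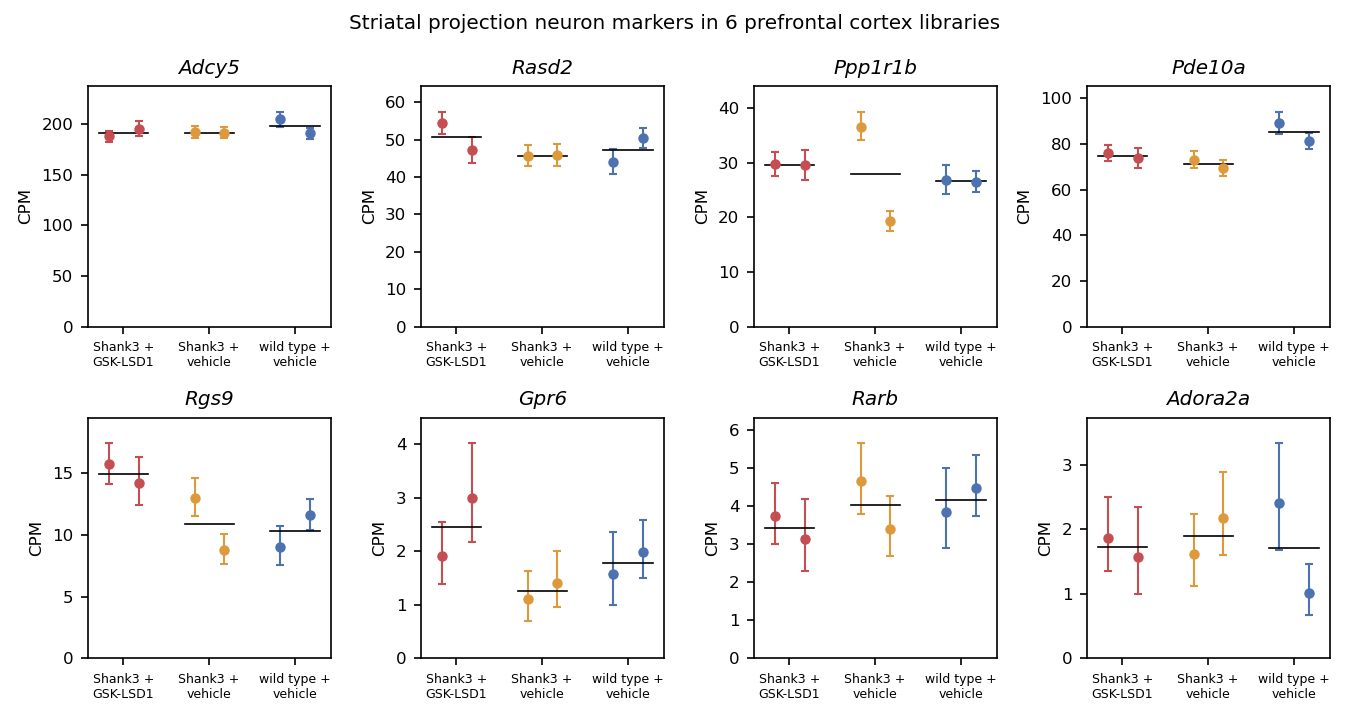
CPM of each member in the 6 libraries, ordered by level per length; points are libraries with 95% Poisson counting intervals, black lines are group means, and each vertical axis starts at 0. Ppp1r1b splits the vehicle-treated mutants at 36.6 and 19.3 CPM, Adora2a splits the wild-type mice at 2.40 and 1.01 CPM, and Gpr6 peaks at 3.0 CPM in GSK-LSD1 library 2.

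The comparison of vehicle-treated mutants with wild-type mice asks what the Shank3 deletion changes. No member was called by edgeR's quasi-likelihood test with Benjamini-Hochberg adjustment over all tested genes, where 1.27% of tested genes were called, and DESeq2 and limma-voom called 0 of the 8. At an unadjusted p under 0.05, 1 of 8 members passed, against 14.0% of tested genes. That member was Pde10a, which averaged 71.2 ± 2.71 CPM in vehicle-treated mutants and 85.2 ± 5.56 CPM in wild-type mice (SD, n = 2 each), a log2 fold change of -0.26 (SE 0.10, edgeR adjusted p = 0.257). The libraries of the groups did not overlap for 2 of 8 members, Pde10a and Gpr6, both lower in vehicle-treated mutants, against 46.2% of tested genes. Gpr6 had a log2 fold change of -0.52 (SE 0.40, edgeR adjusted p = 0.634). For Adcy5 the interval was narrow and allowed a fold of 0.837 to 1.13, while for Ppp1r1b it allowed 0.663 to 1.66. The log2 fold change of Ppp1r1b was 0.07, and it was -0.47 without vehicle-treated mutant library 1 and 0.46 without library 2. Rgs9 was at 0.06, and at -0.25 without vehicle-treated mutant library 1 and -0.10 without wild-type library 1. The median log2 fold change of the members was -0.05, beside 0.02 over all tested genes.

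The comparison of GSK-LSD1-treated with vehicle-treated mutants asks what the inhibitor changes, and it shares the vehicle-treated mutants with the comparison before it. No member was called by edgeR, where 0.107% of tested genes were called, or by DESeq2 or limma-voom. At an unadjusted p under 0.05, 2 of 8 members passed, Gpr6 and Rgs9, against 5.7% of tested genes, and with DESeq2 0 of 8 did. Gpr6 averaged 2.45 ± 0.771 CPM in GSK-LSD1-treated mutants and 1.25 ± 0.214 CPM in vehicle-treated mutants (SD, n = 2 each), a log2 fold change of 0.94 (SE 0.40, edgeR adjusted p = 0.831). It was 0.61 without GSK-LSD1 library 2 and 1.25 without GSK-LSD1 library 1. Rgs9 averaged 15 ± 1.02 CPM in GSK-LSD1-treated mutants and 10.9 ± 2.94 CPM in vehicle-treated mutants (SD, n = 2 each), a log2 fold change of 0.46 (SE 0.20, edgeR adjusted p = 0.835). It was 0.21 without vehicle-treated mutant library 2 and 0.77 without vehicle-treated mutant library 1. The libraries did not overlap for 4 of 8 members, Gpr6, Rgs9, Rasd2 and Pde10a, all higher in GSK-LSD1-treated mutants, against 33.6% of tested genes. For Rasd2 and Pde10a the differences were small, with log2 fold changes of 0.15 and 0.07. The log2 fold change of Ppp1r1b was 0.08, and -0.31 without vehicle-treated mutant library 2. The median of the members was 0.08, beside -0.00 over all tested genes.

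The comparison of GSK-LSD1-treated mutants with wild-type mice asks what separates treated mutants from controls, and it shares its libraries with the other two. No member was called by edgeR, where 2.62% of tested genes were called, or by DESeq2 or limma-voom. At an unadjusted p under 0.05, 1 of 8 members passed, Rgs9, against 15.7% of tested genes. Rgs9 averaged 15 ± 1.02 CPM in GSK-LSD1-treated mutants and 10.3 ± 1.81 CPM in wild-type mice (SD, n = 2 each), a log2 fold change of 0.53 (SE 0.20, 95% interval 0.11 to 0.95, edgeR adjusted p = 0.196). Leaving out 1 library at a time, its log2 fold change ran from 0.37 to 0.73. The libraries did not overlap for 4 of 8 members, against 45.8% of tested genes: Rgs9 and Ppp1r1b were higher, and Pde10a and Rarb lower, in GSK-LSD1-treated mutants. Pde10a had a log2 fold change of -0.18 (edgeR adjusted p = 0.416), Rarb of -0.28 and Ppp1r1b of 0.15. For Adora2a the log2 fold change was 0.08, and -0.47 without wild-type library 2. The median of the members was 0.09, beside 0.02 over all tested genes.

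**Figure D3:**
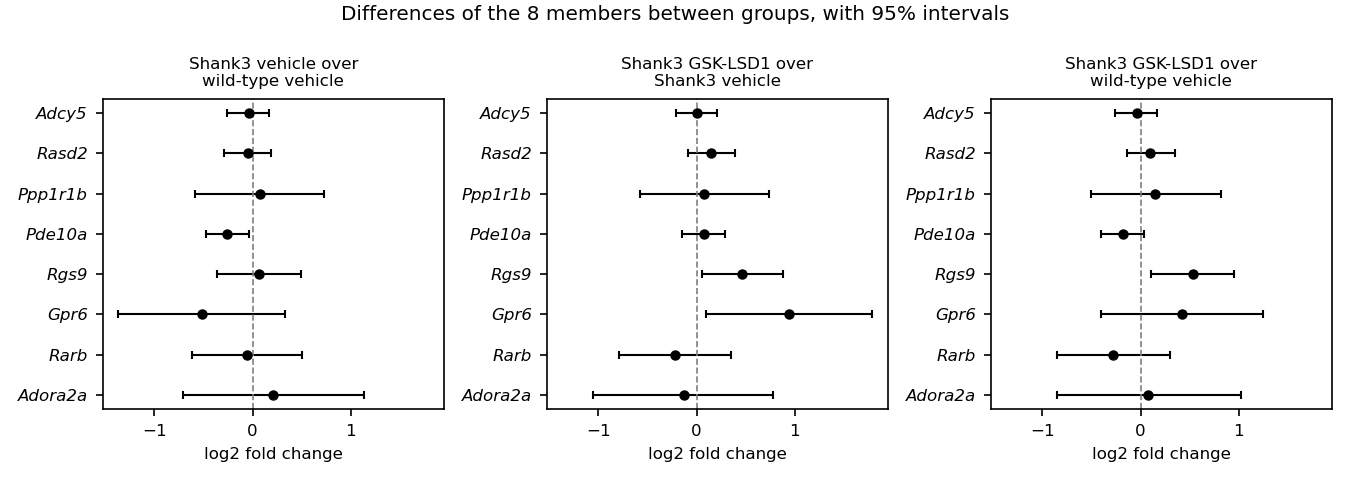
Log2 fold change of each member with its 95% interval (edgeR quasi-likelihood fit, 2 libraries per group) in the 3 comparisons, with the dashed line at 0. The intervals leave out 0 for Pde10a in vehicle-treated mutants over wild type (-0.47 to -0.04), for Gpr6 (0.10 to 1.79) and Rgs9 (0.05 to 0.88) in GSK-LSD1-treated over vehicle-treated mutants, and for Rgs9 in GSK-LSD1-treated mutants over wild type (0.11 to 0.95), all before adjustment for the number of genes.

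Between the 2 libraries of a group, 1 member in each group differed by more than 1.5-fold. In GSK-LSD1-treated mutants this was Gpr6, 1.57 times as high in library 2 as in library 1 (95% counting interval 1.01 to 2.44), where 19.0% of tested genes passed that fold. In vehicle-treated mutants it was Ppp1r1b, with a ratio of library 2 to library 1 of 0.527 (0.468 to 0.594), where 16.0% of tested genes passed. In wild-type mice it was Adora2a, where 16.9% of tested genes passed. In vehicle-treated mutants Rgs9 differed in the same direction as Ppp1r1b, with a ratio of 0.679 (0.562 to 0.818), and so did Rarb with 0.733 (0.536 to 0.998), while Pde10a at 0.948, Rasd2 at 1.00, Adcy5 at 0.998, Adora2a at 1.35 and Gpr6 at 1.27 had intervals that held 1. The summed level of the 8 members was 371 and 368 CPM in GSK-LSD1-treated mutants, 368 and 342 CPM in vehicle-treated mutants, and 381 and 368 CPM in wild-type mice. Adcy5 alone held 188 to 205 CPM of this sum, so it says little about the low members. The mean of the members' log2(CPM + 0.5), each centred on its 6 libraries, weighs members equally. That mean was 0.10 and 0.07 in GSK-LSD1-treated mutants, 0.01 and -0.16 in vehicle-treated mutants, and 0.0 and -0.02 in wild-type mice. Of the 28 pairs of members, 15 had a positive correlation of log2 CPM over the 6 libraries, with a median Pearson's r of 0.02 and a range of -0.73 to 0.69. These 6 libraries share groups, so r is given as a description.

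**Figure D4:**
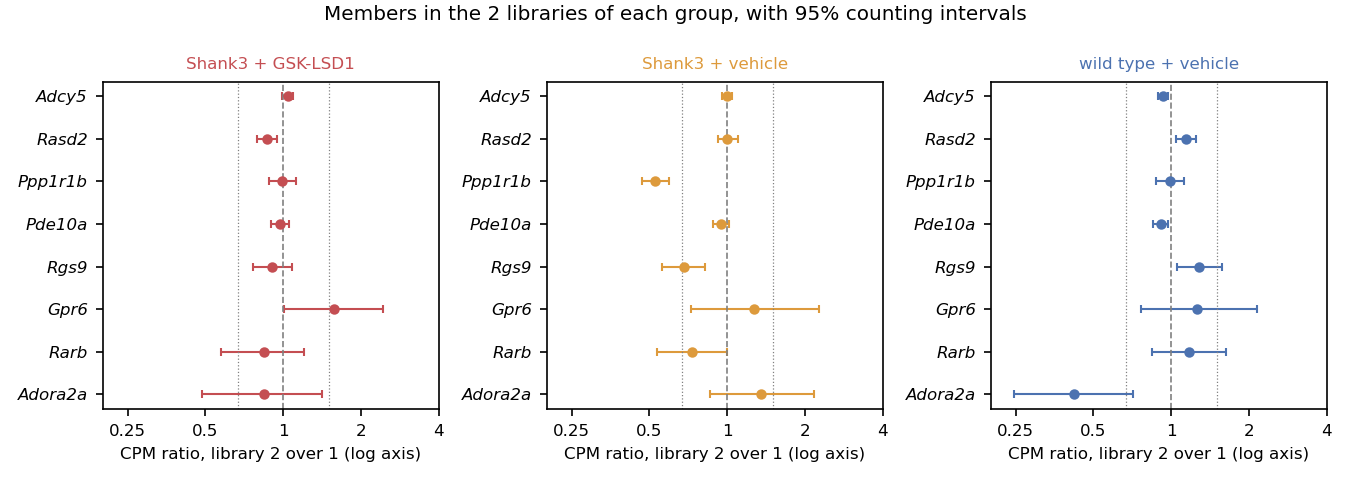
Ratio of CPM in library 2 over library 1 for each member within each group (log axis), with 95% counting intervals; the dashed line marks 1 and the dotted lines a 1.5-fold difference either way. One member lies past a dotted line in each group: Gpr6 at 1.57, Ppp1r1b at 0.527 and Adora2a at 0.422.

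Further striatal genes were read in the same libraries. Six3, Isl1 and Lhx8 were at or near the counting floor of 3 reads, apart from Isl1 in GSK-LSD1 library 2. Six3, a transcription factor of the indirect pathway, had 0 and 4 reads in GSK-LSD1-treated mutants, 1 and 0 in vehicle-treated mutants, and 0 and 2 in wild-type mice. Isl1, a transcription factor of the direct pathway and of cholinergic neurons, had 0 and 33 reads in GSK-LSD1-treated mutants, 2 and 2 in vehicle-treated mutants, and 2 and 1 in wild-type mice. GSK-LSD1 library 2 was thus the single library with Isl1 above the floor. Lhx8, a transcription factor of cholinergic neurons, stood at or under 0.0723 CPM in all libraries. The floor of 3 reads corresponds to 0.105 to 0.212 CPM.

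The dopamine receptors did not follow the members as a group. Drd1 stood at 30.5 and 20.3 CPM in GSK-LSD1-treated mutants, 29.6 and 20.2 CPM in vehicle-treated mutants, and 29.6 and 25.1 CPM in wild-type mice. It was higher in library 1 than in library 2 of each group, and GSK-LSD1 library 2, where Gpr6 peaked, was among its lowest. Drd2 stood at 1.23 and 2.38 CPM in GSK-LSD1-treated mutants, 0.781 and 1.63 CPM in vehicle-treated mutants, and 1.10 and 0.976 CPM in wild-type mice. Its highest library, GSK-LSD1 library 2, and its lowest, vehicle-treated mutant library 1, were those of Gpr6. Drd2 rested on 16 to 36 reads per library, and its 95% counting intervals overlapped at both ends. They were 1.66 to 3.32 CPM in the highest library and 1.14 to 2.26 CPM in the next. In the lowest library the interval was 0.455 to 1.25 CPM, and in the next 0.643 to 1.42 CPM. The opioid peptide precursor Penk of the indirect pathway was likewise highest in GSK-LSD1 library 2, at 32.3 CPM against 20.4 to 26.2 CPM elsewhere. So was the transcription factor Sp9, at 2.79 CPM against 0.816 to 1.57 CPM, on 18 to 41 reads per library. Adora2a, which marks the same neurons, was not: it stood at 1.57 CPM there, the second lowest of the 6 libraries. Nor was Ptprm, the other of the 4 tested indirect-pathway genes, at 43.3 CPM there and 39.6 to 50.3 CPM elsewhere. In all, 3 of the 4 tested indirect-pathway genes were highest in GSK-LSD1 library 2, where 21.1% of tested genes were highest. Of the 9 tested direct-pathway genes, 2 were highest there, Zfp521 at 15.9 CPM and Slc35d3 at 0.818 CPM. Slc35d3 rested on 9 to 17 reads per library.

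Gpr6 was highest in the library in which the tested markers of septum, hypothalamus and ventricle lining were highest too. The 13 markers of septum and hypothalamus, 6 of which had enough reads to be tested, summed to 46.6 and 105 CPM in GSK-LSD1-treated mutants, 42.0 and 59.0 CPM in vehicle-treated mutants, and 41.1 and 42.2 CPM in wild-type mice, and all 6 tested ones were highest in GSK-LSD1 library 2, where 21.1% of tested genes were highest. Zic1, a transcription factor of the septum, stood at 49.3 CPM there and at 11.1 to 24.8 CPM elsewhere. The 6 thalamus markers summed to 51.9 and 85.0 CPM in GSK-LSD1-treated mutants, 51.4 and 73.1 CPM in vehicle-treated mutants, and 42.1 and 42.4 CPM in wild-type mice. Of these 6, 4 were highest in GSK-LSD1 library 2, among them Prkcd, at 25.6 CPM there and 4.19 to 13.2 CPM elsewhere, while Tcf7l2 was lowest there at 1.5 CPM and Plekhg1 was highest in vehicle-treated mutant library 2 at 22.7 CPM. The 8 markers of the ventricle lining, 7 of them tested, summed to 12 and 28.1 CPM in GSK-LSD1-treated mutants, 11.2 and 14.4 CPM in vehicle-treated mutants, and 11.0 and 9.97 CPM in wild-type mice. The hypothalamic hormone Avp was at or under 0.408 CPM in the mutants and had 0 reads in both wild-type libraries, and Oxt and Pmch stood at or under 0.136 CPM in all 6. In GSK-LSD1-treated mutants over wild type, edgeR called Zic4 among the septal markers and Kl and Clic6 among the ventricular ones, and in the other comparisons none of these 13 tested genes. DESeq2 called none of them in any comparison, and limma-voom called only Kl, in GSK-LSD1-treated mutants over wild type. Without GSK-LSD1 library 2, Gpr6 remained higher in GSK-LSD1-treated than in vehicle-treated mutants by 0.61 on the log2 scale, and over wild type by 0.08. Pearson's r of Gpr6 with the mean of the 6 tested septum and hypothalamus markers was 0.75 and Spearman's rho 0.26. With the mean of the 4 tested indirect-pathway genes r was higher, at 0.87 (rho 0.6). With the mean of the direct-pathway genes r was 0.09. These are descriptions over 6 libraries that share groups. The part of septal, hypothalamic, ventricular or striatal tissue in the Gpr6 level was not tested.

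Ppp1r1b was highest and lowest in the libraries in which deep-layer markers were highest and lowest. The 13 deep-layer markers summed to 691 and 566 CPM in GSK-LSD1-treated mutants, 791 and 513 CPM in vehicle-treated mutants, and 707 and 639 CPM in wild-type mice. Of the 13, 9 were highest in vehicle-treated mutant library 1, where 12.9% of tested genes were highest, and 9 were lowest in vehicle-treated mutant library 2, where 15.5% were lowest. Foxp2, a transcription factor of layer 6 neurons that striatal projection neurons also express, stood at 25.7 and 10.4 CPM in those libraries. Syt6, a synaptotagmin of layer 6, stood at 47.7 and 19.9 CPM, and Ctgf, a marker of layer 6b, at 44.1 and 17.0 CPM. Not all of the 13 split so widely: Etv1 stood at 80.3 and 81.2 CPM in the same libraries, and Fezf2 at 39.6 and 37.7 CPM. The 8 upper-layer markers summed to 797 and 717 CPM in GSK-LSD1-treated mutants, 569 and 770 CPM in vehicle-treated mutants, and 766 and 779 CPM in wild-type mice. Pearson's r of Ppp1r1b with the mean deep-layer profile was 0.77 and Spearman's rho 0.71 over the 6 libraries, and with the mean of the indirect-pathway genes r was -0.05. With the mean of the other 7 members r of Ppp1r1b was 0.46. Ppp1r1b was not the only member with such a value, since r of Rarb with the deep-layer profile was also 0.77 (rho 0.77), and the other 6 members lay between -0.50 and 0.47. These are descriptions over libraries that share groups, and the part of the layers cut in the Ppp1r1b level was not tested.

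**Figure D5:**
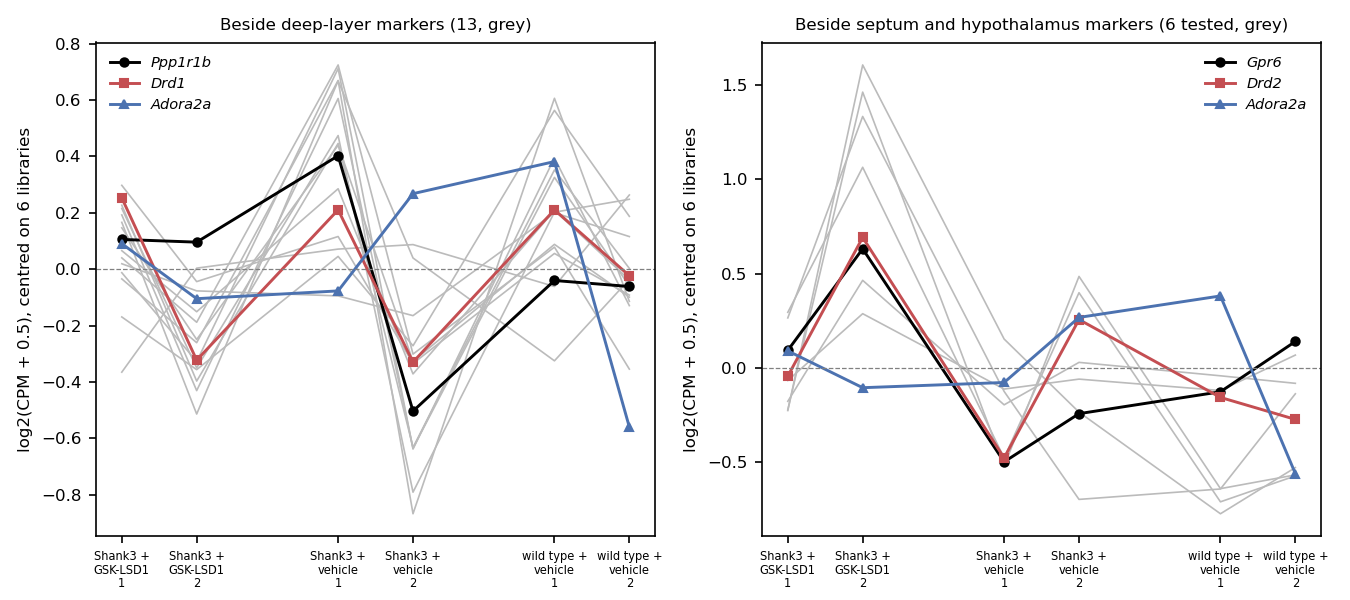
Log2(CPM + 0.5), centred on the mean of 6 libraries, of Ppp1r1b, Drd1 and Adora2a over the 13 deep-layer markers (left, grey lines) and of Gpr6, Drd2 and Adora2a over the 6 tested markers of septum and hypothalamus (right, grey lines). Ppp1r1b and 9 of the 13 deep-layer markers are highest in vehicle-treated mutant library 1, and Gpr6, Drd2 and all 6 markers on the right are highest in GSK-LSD1 library 2, where Adora2a is not.

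None of the 9 tested direct-pathway, 4 tested indirect-pathway or 20 tested genes of both pathways was called by edgeR or limma-voom in any comparison, and DESeq2 called Ptpn5 in both comparisons with wild type and Foxp1 in 1. With edgeR and no filter on low counts, the adjusted p-values in vehicle-treated mutants over wild type were 0.00752 for Rxrg and 0.015 for Ptpn5, and in GSK-LSD1-treated mutants they were 0.0041 over mutant vehicle and 0.00232 over wild type for Lrrc10b, and 0.0166 for Ptpn5 and 0.0255 for Foxp1 over wild type. In vehicle-treated mutants over wild type the median log2 fold changes of the 3 lists, in the same order, were 0.06, 0.04 and -0.21. Of the 20 genes of both pathways, 18 had a negative log2 fold change there, beside 8919 of 18705 tested genes, and 6 had an unadjusted p under 0.05, beside 14.0% of tested genes. The smallest adjusted p-values were those of Ptpn5, the striatal-enriched tyrosine phosphatase STEP, and Rxrg, a retinoid X receptor that pairs with Rarb. Ptpn5 averaged 95.7 CPM in vehicle-treated mutants and 128 CPM in wild-type mice, a log2 fold change of -0.42 (edgeR adjusted p = 0.0793, DESeq2 adjusted p = 0.0242). Rxrg averaged 5.62 CPM in vehicle-treated mutants and 10.2 CPM in wild-type mice, a log2 fold change of -0.84 (edgeR adjusted p = 0.0848). Both genes are also transcribed in cortex. Slc17a7 was lower in all 4 mutant libraries than in the wild-type libraries, at 1160 to 1430 CPM against 1670 and 1920 CPM. Of the 9 excitatory markers, 8 had a negative log2 fold change in vehicle-treated mutants over wild type, with a median of -0.28. Not all followed Slc17a7: the log2 fold change was -0.05 for Camk2a and 0.06 for Neurod6, and the groups overlapped for both. Astrocyte markers stood the other way. All 8 had a positive log2 fold change in vehicle-treated mutants over wild type, with a median of 0.55, and edgeR called Aqp4, Gja1 and S100b higher. They summed to 5263 and 5308 CPM in GSK-LSD1-treated mutants, 5285 and 5463 CPM in vehicle-treated mutants, and 3854 and 4766 CPM in wild-type mice. Whether the shares of excitatory neurons and astrocytes play a part in the levels of the striatal genes was not tested.

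In GSK-LSD1-treated over vehicle-treated mutants the medians of the 3 lists were 0.18, 0.41 and 0.03, and over wild type 0.05, 0.50 and -0.16. The gene of these lists nearest the threshold over vehicle-treated mutants was Ankrd63, at 28.0 and 33.1 CPM in GSK-LSD1-treated mutants, 21.4 and 15.2 CPM in vehicle-treated mutants, and 27.0 and 21.2 CPM in wild-type mice. Its log2 fold change was 0.73 over vehicle-treated mutants (edgeR adjusted p = 0.215) and 0.35 over wild type (edgeR adjusted p = 0.348). The gene nearest the threshold over wild type was Lrrc10b, a leucine-rich repeat gene enriched in striatum, at 5.43 and 8.58 CPM in GSK-LSD1-treated mutants, 2.11 and 3.72 CPM in vehicle-treated mutants, and 3.56 and 2.64 CPM in wild-type mice. Its groups did not overlap in either comparison of GSK-LSD1-treated mutants. Its log2 fold change was 1.25 over vehicle-treated mutants (edgeR adjusted p = 0.268) and 1.18 over wild type (edgeR adjusted p = 0.0541). Foxp1, a transcription factor of striatal projection neurons and of cortical layers, averaged 93.0 CPM in GSK-LSD1-treated mutants and 122 CPM in wild-type mice, a log2 fold change of -0.39 (edgeR adjusted p = 0.0544). With DESeq2 the adjusted p of Foxp1 was 0.0141.

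The signalling partners of the members were mostly not called either. Of 21 tested genes around DARPP-32 (protein kinase A, protein phosphatase 1, calcineurin, Cdk5 and their G proteins), 0 were called by edgeR in any comparison, with 3, 0 and 5 at an unadjusted p under 0.05 in mutant vehicle over wild type, GSK-LSD1 over mutant vehicle and GSK-LSD1 over wild type, where 14.0%, 5.7% and 15.7% of tested genes passed. DESeq2 and limma-voom also called 0 of them. Of the 9 other adenylyl cyclases, relatives of Adcy5, edgeR called 0, with 2, 1 and 3 at an unadjusted p under 0.05 in the same comparisons, and DESeq2 called Adcy1 in GSK-LSD1 over wild type. Of the 16 other phosphodiesterases 1 was called, Pde4a, which degrades cAMP, in GSK-LSD1 over wild type, where edgeR called 2.62% of tested genes. It averaged 66.2 CPM in GSK-LSD1-treated and 77.3 CPM in vehicle-treated mutants, against 101 CPM in wild-type mice. Its log2 fold change over wild type was -0.38 in vehicle-treated mutants (edgeR adjusted p = 0.144) and -0.60 in GSK-LSD1-treated mutants (edgeR adjusted p = 0.0155). Only the latter was called. Pde10a in the same comparison was at -0.18. Without wild-type library 1 the adjusted p of Pde4a was 0.277, without GSK-LSD1 library 1 it was 0.0623, and with library size scaling it was 0.0555.

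Of the 7 tested genes of the R7 RGS complex, to which Rgs9 belongs, edgeR called 1, Rgs7bp, as did limma-voom. Both calls were in GSK-LSD1-treated mutants over wild type, where edgeR called 2.62% of tested genes. DESeq2 also called Gpr158, an orphan receptor that binds R7 proteins, in both comparisons with wild type, where its log2 fold changes were -0.38 in vehicle-treated mutants (edgeR adjusted p = 0.0812) and -0.35 in GSK-LSD1-treated mutants (edgeR adjusted p = 0.0795). Rgs7bp is the palmitoylated anchor that holds R7 proteins such as Rgs9 at the membrane. It averaged 229 CPM in GSK-LSD1-treated and 276 CPM in vehicle-treated mutants, against 325 CPM in wild-type mice. Its log2 fold change over wild type was -0.23 in vehicle-treated mutants (edgeR adjusted p = 0.311) and -0.50 in GSK-LSD1-treated mutants (edgeR adjusted p = 0.0163). Only the latter was called. Rgs9 in that comparison had a positive log2 fold change that was not called. The adjusted p of Rgs7bp was 0.188 without wild-type library 1, 0.0582 without wild-type library 2 and 0.092 without GSK-LSD1 library 2. Of the 15 tested retinoid genes 1 was called, Aldh1a1, an enzyme that makes retinoic acid, the ligand of Rarb. It was called in both comparisons with wild type, where edgeR called 1.27% of tested genes in vehicle-treated and 2.62% in GSK-LSD1-treated mutants. Aldh1a1 rose to 19.7 CPM in vehicle-treated mutants and 20.0 CPM in GSK-LSD1-treated mutants, against 10.5 CPM in the same wild-type mice, with log2 fold changes of 0.91 (edgeR adjusted p = 0.0222) and 0.92 (edgeR adjusted p = 0.0104). Rarb was at -0.06 and -0.28 in these comparisons. In vehicle-treated mutants over wild type the adjusted p of Aldh1a1 lay over the threshold without wild-type library 1 (0.275), vehicle-treated mutant library 1 (0.0521), vehicle-treated mutant library 2 (0.146) or the robust option (0.0525). In GSK-LSD1-treated mutants over wild type it did so without wild-type library 1 (0.117) or GSK-LSD1 library 2 (0.0718).

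The genes most like the members' mean profile, by Pearson's r of log2 CPM over the 6 libraries among 15418 genes with a mean of at least 1 CPM and an SD over the libraries of at least 0.5 times that of the profile, were Gm14494, Lcmt1, Peli1, Gm9843, Gm16399, Enox1, Spata5, Blcap, Calr3 and Pkdrej, with r between 0.975 and 0.996. None of them is in the lists of striatal genes. With 6 libraries and this many genes, values of r near 1 are found for some genes of any profile, so the list is a description.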

How the data were processed

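The authors deposited raw read counts per gene symbol for 6 libraries. Per the submitters' processing notes the tools were cutadapt, TopHat2, SAMtools, featureCounts and edgeR, with mm10 (GRCm38) as build. Tool releases, the annotation and the use of strand in counting were not recorded there or in the labels. Counts were analysed with edgeR 4.0.16 in R 4.3.3: filterByExpr, TMM scaling, and a robust quasi-likelihood fit of 3 groups over all 6 libraries (3 residual degrees of freedom, biological coefficient of variation 11.5%). Tests were two-sided, adjusted over 18705 genes, with a threshold of 0.05. SE and 95% intervals were derived from each gene's F statistic. With 2 libraries per group an exact permutation test of 1 gene cannot give a p under 0.333. CPM uses TMM-scaled library sizes, and RPKM divides it by exonic length from GENCODE M21. Counting intervals (Poisson for levels, binomial for ratios, 95%) and the floor of 3 counts cover counting error only. The 26 rows whose symbols had become dates were in the fit and hold no named gene. Libraries of a group differed beyond sampling noise (chi-square over degrees of freedom, 9.07 to 12). The fit was tested on simulated counts. The alternatives tried were scaling by RLE, by upper quartile or by library size, no filter, DESeq2 1.42.0, limma-voom (limma 3.58.1), no robust option, a replicate block, a fit to the 4 compared libraries, and leaving out each library. The named genes were all members, any striatal gene, up to 4 genes per other list, and the 10 genes most like the members. Members and lists were chosen with earlier results of these data known.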

Additional observations from a re-analysis of the deposited data

How the results depend on the processing

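No member was called in any of the 45 fits tried over the 3 comparisons (15 alternatives each), and the counts of members that did not overlap (2, 4 and 4) or differed past 1.5-fold within a group (1, 1 and 1) were the same under RLE, upper quartile and library size scaling. An equal count can hold other members. With library size scaling Rarb overlapped, and Rasd2 did not, for GSK-LSD1 over wild type. Of 354 alternative fold changes of members 26 changed sign, all of them without a call. The cause was not tested for any change of sign or count.

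The number of all genes called moved more. For vehicle-treated mutants over wild type it was 238 as reported, 141 with upper quartile scaling, 35 with library size scaling, 807 without a filter, 602 with DESeq2, 11 without the robust option, 524 with only 4 libraries, and 6 to 656 leaving out 1 library. For GSK-LSD1 over mutant vehicle it was 20, against 106 without a filter, 35 with DESeq2 and 10 to 83 leaving out 1 library. For GSK-LSD1 over wild type it was 491, against 253 with library size scaling, 962 without a filter, 782 with DESeq2 and 6 to 631 leaving out 1 library.

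With library size scaling the log2 fold change of vehicle-treated mutants over wild type turned positive for Rasd2 (0.024), Rarb (0.013), Adcy5 (0.030) and Lrrc10b (0.014), and that of Adcy5 was 0.008 for GSK-LSD1 over mutant vehicle and 0.038 over wild type. With limma-voom it was -0.002 for Ppp1r1b in vehicle-treated mutants over wild type and -0.023 for Aldh1a1 in GSK-LSD1 over mutant vehicle. Leaving out 1 library at a time, the fold changes that changed sign ranged, for vehicle-treated mutants over wild type -0.470 to 0.460 for Ppp1r1b, -0.344 to 0.894 for Adora2a, -0.249 to 0.316 for Rgs9, -0.143 to 0.048 for Rasd2, -0.305 to 0.150 for Rarb, -0.099 to 0.002 for Adcy5 and -0.525 to 0.281 for Lrrc10b. In the same way they ranged, for GSK-LSD1 over mutant vehicle -0.310 to 0.619 for Ppp1r1b, -0.328 to 0.101 for Adora2a, -0.427 to 0.027 for Rarb, -0.024 to 0.025 for Adcy5, -0.188 to 0.199 for Aldh1a1 and -0.125 to 0.143 for Ptpn5. They also ranged, for GSK-LSD1 over wild type -0.473 to 0.765 for Adora2a, -0.014 to 0.202 for Rasd2 and -0.098 to 0.003 for Adcy5.

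The replicate block, with the replicate number as a term, gave 233, 18 and 505 called genes in the 3 comparisons and 0 called members. Same-numbered libraries deviated together with correlations of -0.05, -0.058 and 0.076, so the numbers were not taken to pair the samples. Depth limits Adora2a, Gpr6 and Rarb, which rest on 23 to 124 reads per library. It also limits Drd2, on 16 to 36 reads per library, and Sp9, on 18 to 41.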
